A study of Ovis aries with 9 samples.

Results

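The 7 genes described here encode the precursors of the enkephalins (PENK), the dynorphins (PDYN) and nociceptin (PNOC), and the mu (OPRM1), kappa (OPRK1), delta (OPRD1) and nociceptin (OPRL1) receptors. They were chosen by gene symbol, 7 of the 21284 genes with RefSeq protein-coding transcripts in the table, and together they held 26 of its transcripts. Hypothalamus RNA of 9 Dolang ewes was sequenced, with 1 library per animal and 3 animals each at prepuberty (listed ages of 120 and 121 days), puberty (130 and 131 days) and postpuberty (150 and 151 days). Puberty was recognised by first estrous behaviour, and stage and age cannot be told apart in this design. The samples were pieces of hypothalamic tissue holding many cell types, so that fewer cells of a type and less RNA per cell cannot be told apart either.

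Opioid precursors are made as inactive proteins, cut into short peptides in secretory vesicles and released by neurons. Enkephalins act mainly on delta and mu receptors, dynorphins on kappa receptors and nociceptin on its own receptor, and all 4 receptors couple to inhibitory G proteins that lower the excitability of the cell. In the hypothalamus of sheep, dynorphin is made with kisspeptin and neurokinin B in neurons of the arcuate nucleus that pace the release of gonadotropin-releasing hormone.

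Values are FPKM, an abundance corrected for transcript length and for how many fragments each library had aligned, summed over the coding transcripts of a gene. The study lists between 19347227 (the second puberty library, Puberty 2) and 23966519 (Prepuberty 3) mapped reads, so that, if FPKM was scaled to these numbers, an FPKM of 1 corresponds to about 19.3 to 24.0 of them per kilobase of transcript. Whether they count reads or fragments is not given in the sources used here. Puberty 2 stood apart from the other libraries. Its FPKM over all transcripts summed to 599726, against 359588 to 398109 in the other 8, and 10970 genes reached an FPKM of 0.5, against 12985 to 13687. Stage comparisons and correlations are therefore given with and without Puberty 2. Of 16 listed markers of hypothalamic neurons, 8 had a mean FPKM of at least 0.5 over the other 8 libraries, and NKX2-1, SIM1, LHX6, NR5A1, AGRP and GHRH stayed below 0.5 in each of those 8. Somatostatin (SST) ranged from 4.27 to 107 FPKM and corticotropin-releasing hormone (CRH) reached 118 in Prepuberty 1 against 0.392 to 7.14 in the other libraries. The part of such differences between libraries in the results below was not tested.

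PENK was by far the highest of the 7 genes. Its single transcript lies on chromosome 9 from 36548458 to 36552896 (ARS-UI_Ramb_v3.0). PENK measured 27.5, 29.5 and 15.8 FPKM at prepuberty, 62.7, 2.84 and 13.1 at puberty, and 22.4, 20.7 and 60.7 at postpuberty. The high libraries were Puberty 1 and Postpuberty 3, the low one was Puberty 2, and the stages overlapped. The stage means were 24.3 ± 7.42 (SD, n = 3), 26.2 ± 32.0 and 34.6 ± 22.6, and the puberty mean was 37.9 over the 2 libraries other than Puberty 2. Median PENK over those 8 libraries was 25.0 FPKM, and 87.6% of the genes tested had a lower median.

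PDYN was the most variable of the 7 genes. It lies on chromosome 13 from 52852277 to 52865948 and has 4 coding transcripts in the table. PDYN measured 0.272, 4.48 and 0.941 FPKM at prepuberty, 2.63, 0 and 1.21 at puberty, and 0.398, 7.35 and 4.14 at postpuberty. Postpuberty 2, Prepuberty 2 and Postpuberty 3 were high, Prepuberty 1 and Postpuberty 1 were low, and Puberty 2 was listed at 0, so that high and low libraries occurred within the same stage. An FPKM of 0 can be a failed estimate as well as absent RNA. The means were 1.90 ± 2.26 (SD, n = 3) at prepuberty and 3.96 ± 3.48 at postpuberty, and 1.92 over the 2 puberty libraries with a value above 0. No puberty mean in FPKM that counts the 0 of Puberty 2 is given, for the reason above, but the comparisons over all 9 libraries below do include that 0. Without Puberty 2 the highest value was 27.0 times the lowest, against 4.79 times for PENK and 2.65 times for OPRK1, the least variable of the 7.

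PNOC had the lowest mean and median FPKM of the 7 genes, though not the lowest value in every library. It lies on chromosome 2 from 102768304 to 102802667 and has 2 coding transcripts. PNOC measured 0.283, 1.79 and 0.236 FPKM at prepuberty, 1.02, 0.116 and 0.772 at puberty, and 0.202, 0.433 and 0.993 at postpuberty. Only Prepuberty 2 and Puberty 1 exceeded 1 FPKM, and the 3 stages overlapped. The stage means were 0.771 ± 0.886 (SD, n = 3), 0.637 ± 0.469 and 0.543 ± 0.407, and 0.898 at puberty without Puberty 2.

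**Figure D1:**
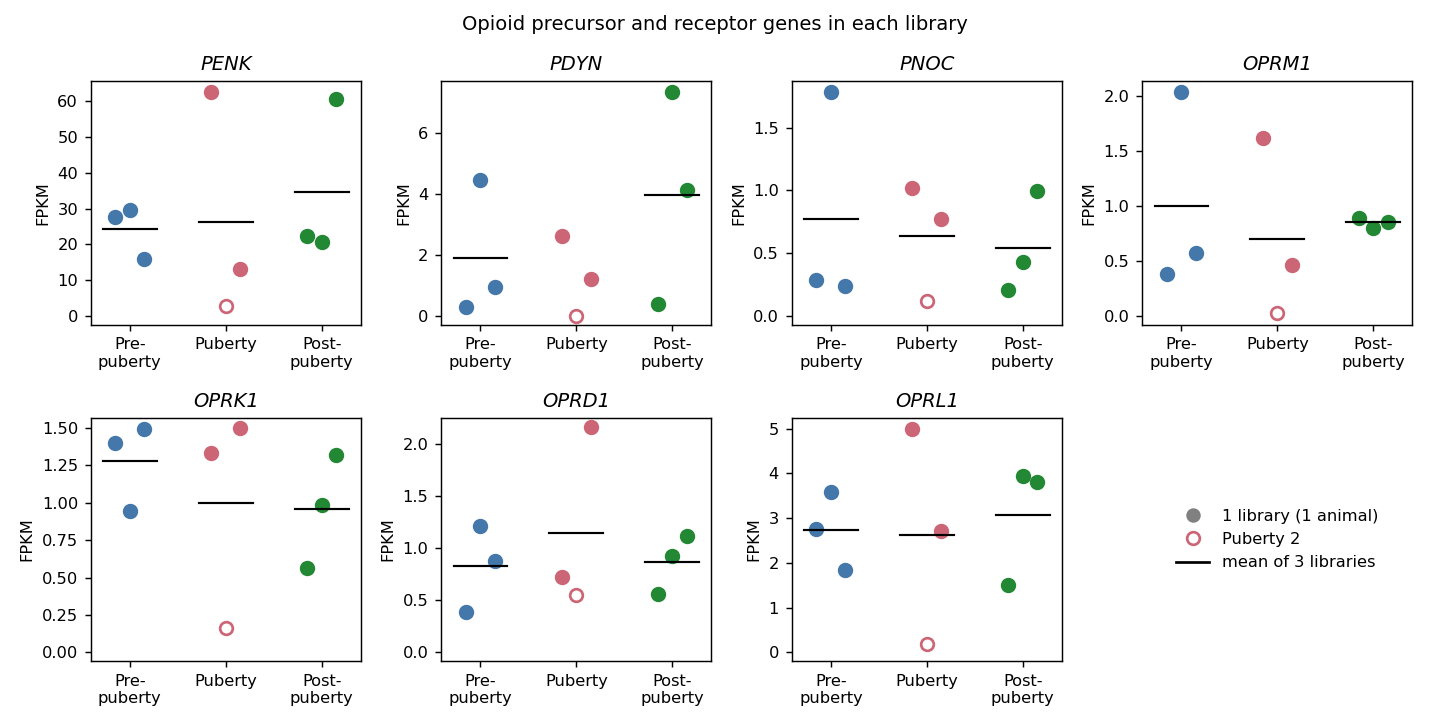
FPKM (y axis, starting near 0 and scaled for each gene) of the 7 opioid genes by stage (x axis). Each point is 1 library from 1 animal, the open point is Puberty 2 and the line is the mean of 3 libraries, left out for PDYN at puberty, where Puberty 2 is listed at 0. Points of the 3 stages overlap in each panel, and Puberty 2 is the lowest point for 6 of the 7 genes.

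Among the receptors, OPRL1, which binds nociceptin, had the highest level in 8 of the 9 libraries. The gene lies on chromosome 13 from 53479186 to 53497153. OPRL1 measured 2.75, 3.59 and 1.84 FPKM at prepuberty, 5.0, 0.185 and 2.71 at puberty, and 1.5, 3.93 and 3.81 at postpuberty. Puberty 1 was highest and Puberty 2 lowest, so that the puberty libraries spanned those of both other stages. The stage means were 2.73 ± 0.875 (SD, n = 3), 2.63 ± 2.41 and 3.08 ± 1.37, and 3.86 at puberty without Puberty 2.

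OPRK1, the dynorphin receptor, lies on chromosome 9 from 34705362 to 34735944. OPRK1 measured 1.4, 0.942 and 1.49 FPKM at prepuberty, 1.33, 0.161 and 1.5 at puberty, and 0.565, 0.981 and 1.32 at postpuberty. Puberty 2 and Postpuberty 1 were low, and the other 7 libraries lay between 0.942 and 1.5. The stage means were 1.28 ± 0.292 (SD, n = 3), 0.998 ± 0.729 and 0.955 ± 0.377, and 1.42 at puberty without Puberty 2.

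OPRM1, the receptor for most opiate drugs, lies on chromosome 8 from 78545615 to 78612689. OPRM1 measured 0.383, 2.04 and 0.572 FPKM at prepuberty, 1.62, 0.0295 and 0.464 at puberty, and 0.896, 0.801 and 0.854 at postpuberty. Prepuberty 2 and Puberty 1 were high, as they were for PNOC, and the 3 postpuberty libraries lay close together inside the range of each other stage. The postpuberty mean was 0.851 ± 0.0475 (SD, n = 3), against 0.999 ± 0.908 at prepuberty and 0.703 ± 0.820 at puberty, or 1.04 at puberty without Puberty 2.

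OPRD1, the delta receptor, lies on chromosome 2 from 238376243 to 238415192. OPRD1 measured 0.387, 1.21 and 0.877 FPKM at prepuberty, 0.720, 0.548 and 2.16 at puberty, and 0.555, 0.923 and 1.12 at postpuberty. The high library was Puberty 3, the low one was Prepuberty 1, and Puberty 2 was not the lowest for this gene. The stage means were 0.824 ± 0.413 (SD, n = 3), 1.14 ± 0.885 and 0.867 ± 0.288, and 1.44 at puberty without Puberty 2.

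Ordered by their mean on the log2(FPKM + 1) scale, the genes ran PENK, OPRL1, PDYN, OPRK1, OPRD1, OPRM1 and PNOC. PENK exceeded OPRL1 in 9 of 9 libraries, by 2.70 ± 0.68 (SD) on that scale, with a two-sided exact sign-flip permutation p of 0.00391, the smallest that 9 libraries can give. Without Puberty 2 the gap was 2.82 in 8 of 8 libraries (exact p = 0.00781). None of the 5 neighbouring pairs below PENK differed beyond the spread over libraries. Neighbours in an order taken from the same values have small gaps by construction, and pairs farther apart were not tested. Between OPRL1 and PDYN the mean gap was 0.39 (exact p = 0.145), with OPRL1 higher in 6 of 9 libraries. PDYN exceeded OPRK1 by a mean of 0.39 in only 4 of 9 libraries (exact p = 0.270). The gaps from OPRK1 to OPRD1, OPRD1 to OPRM1 and OPRM1 to PNOC were 0.10, 0.10 and 0.16 (exact p = 0.480, 0.605 and 0.148).

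PENK made up most of the precursor FPKM, from 72.6% of the sum of PENK, PDYN and PNOC in Postpuberty 2 to 98.0% in Prepuberty 1. The ratio of PENK to PDYN ranged from 2.81 in Postpuberty 2 to 101 in Prepuberty 1, which are libraries of the outer stages, while the 2 puberty libraries with PDYN above 0 had ratios of 23.8 and 10.8. The FPKM of the 4 receptors summed to 3.52 to 8.67 in the 8 libraries and to 0.924 in Puberty 2. OPRL1 made up 38.5% to 59.2% of that sum in the 8 libraries and 20.0% in Puberty 2, where OPRD1 was highest.

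In Puberty 2 the opioid genes were low as a group. Its FPKM as a percentage of the median of the other 8 libraries was 0 for PDYN, 3.57 for OPRM1, 5.84 for OPRL1, 11.4 for PENK, 12.1 for OPRK1, 19.2 for PNOC and 60.9 for OPRD1. Of the 7 genes, 6 (85.7%) lay below 50% in this library, as did 6204 of all 13685 genes (45.3%), and the medians were 11.4% for the 7 genes and 57.0% for all genes. These are descriptions of 1 library of 1 animal and carry no test.

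The question put to each gene was whether its level differed between stages. The test was limma on log2(FPKM + 1) over the 13696 genes with a mean of at least 0.5 FPKM, which included all 7 opioid genes, and a gene was called at an adjusted p under 0.05 and an absolute log2 difference of at least 1. In each of the 3 comparisons 0 of the 7 genes were called, with a share of called genes of 0.0% over all genes. The number of all genes with an unadjusted limma p under 0.05 was 225 for puberty against prepuberty, 274 for postpuberty against puberty and 100 for postpuberty against prepuberty, and 0 of these were opioid genes of the 7. Without Puberty 2 again 0 genes were called, and 213, 270 and 246 had an unadjusted p under 0.05.

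With all 9 libraries, the largest stage differences of the 7 genes were those of PENK and PDYN between puberty and postpuberty. PENK was 1.06 higher at postpuberty on the log2(FPKM + 1) scale (95% confidence interval -0.93 to 3.06, SE 0.88, limma adjusted p = 0.783). Without Puberty 2 that difference was 0.07 (-1.57 to 1.72, limma adjusted p = 1.0). For PDYN the difference was 0.97 (-0.79 to 2.72, SE 0.78, limma adjusted p = 0.783), and it was 0.47 (-1.52 to 2.45, limma adjusted p = 1.0) without Puberty 2. Each of these intervals includes 0 and reaches differences of more than 1 log2 unit.

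Between prepuberty and postpuberty, where Puberty 2 enters only the estimate of the spread, the difference was 0.72 for PDYN (-1.04 to 2.47, or -1.06 to 2.49 without Puberty 2). For PENK it was 0.37 (-1.63 to 2.36, or -1.10 to 1.84 without Puberty 2), and for OPRK1 it was -0.23 (-0.96 to 0.50, or -0.69 to 0.23 without Puberty 2). PNOC, OPRM1, OPRD1 and OPRL1 had differences of -0.12, -0.02, 0.05 and 0.09, and the limma adjusted p was 1.0 for each of the 7. The median over all genes was 0.05 in this comparison.

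Between prepuberty and puberty the signs depended on single libraries, among them Puberty 2. With it, 6 of the 7 genes were lower at puberty, from -0.05 for PNOC to -0.70 for PENK, and OPRD1 was 0.18 higher, while the median over all genes was -0.15. Without it, the 7 differences were all above 0, from 0.06 for OPRM1 to 0.38 for OPRD1, beside a median over all genes of 0.02. Leaving out Prepuberty 2 instead turned the signs of PDYN (0.35), PNOC (0.33) and OPRM1 (0.10). The OPRD1 difference was -0.13 without Puberty 3 and 0.0 without Prepuberty 1. The widest of the intervals without Puberty 2, that of PDYN, ran from -1.74 to 2.24, and the narrowest, that of OPRK1, from -0.42 to 0.61.

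**Figure D2:**
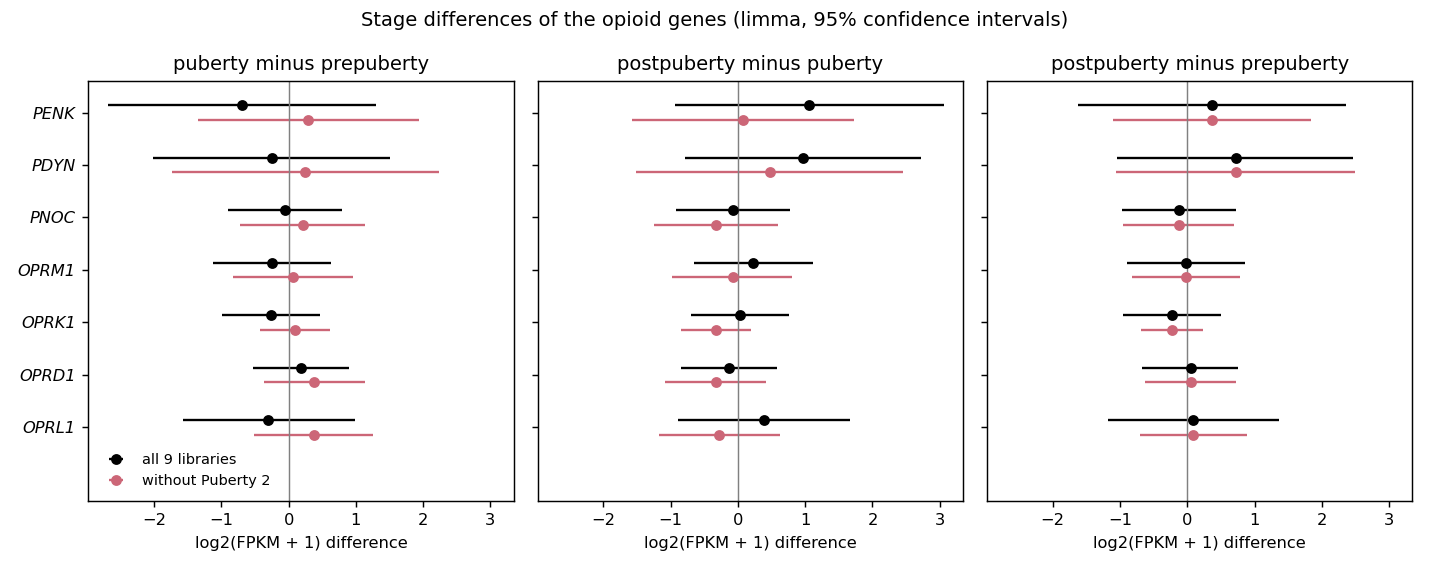
Differences between stages in log2(FPKM + 1) (x axis) for the 7 opioid genes (rows), with limma 95% confidence intervals as bars, over all 9 libraries (black) and without Puberty 2 (red). Every interval includes 0, and for 6 of the 7 genes the puberty minus prepuberty estimate lies on the other side of 0 without Puberty 2.

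A test over the 3 stages at once gave the same outcome. The limma F test had adjusted p-values of 0.994 to 0.997 for the 7 genes, and an exact permutation test over all 1680 assignments of the libraries gave p-values from 0.546 (PDYN) to 0.954 (PNOC). Without Puberty 2 the limma F test had an adjusted p of 1.0 for each gene, and the exact permutation p ranged from 0.282 (OPRK1) to 0.979 (OPRM1).

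With all 9 libraries, 0 of the 7 genes had stages that did not overlap in any comparison, where 4.94%, 7.15% and 4.4% of all genes did so for puberty against prepuberty, postpuberty against puberty and postpuberty against prepuberty. Without Puberty 2, OPRK1 was the only one of the 7 whose stages separated. Its 3 postpuberty values (0.565 to 1.32 FPKM) lay below both remaining puberty values (1.33 and 1.5 FPKM), and the stage means were 0.95 and 1.27 on the log2(FPKM + 1) scale. The exact permutation p was 0.2, where 3 libraries against 2 cannot give less than 0.1. In that comparison 13.7% of all genes did not overlap, so that 1 of 7 is near the background. In the other 2 comparisons without Puberty 2, 0 of the 7 genes separated, beside 11.2% of all genes for puberty against prepuberty and 4.38% for postpuberty against prepuberty.

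The relation of the 7 genes to the amount of neuronal RNA was examined with a score over 15 neuron markers, among them SNAP25, SYT1 and RBFOX3, which is the mean of their log2(FPKM + 1) values, each centred on its mean over libraries. The score was -0.73, 0.71 and 0.27 at prepuberty, 0.44, -1.07 and 0.12 at puberty, and -0.80, 0.56 and 0.51 at postpuberty. Prepuberty 1, Puberty 2 and Postpuberty 1, 1 library of each stage, lay well below the other 6. The markers did not move as 1 in Puberty 2, where 7 of the 15 had their lowest value, among them SNAP25 (57.0 FPKM), while STMN3 had its highest (519, against 90.4 to 285 in the other libraries). In FPKM the markers summed to 1140 to 2990 at prepuberty, 1350 to 2520 at puberty and 924 to 2920 at postpuberty. Genes listed as markers of neurons of neighbouring regions also varied. The thalamic list summed to 80.5 FPKM in Prepuberty 2 and 57.1 in Postpuberty 2, against 11.1 to 27.3 in the others. These were the libraries with the highest PDYN. SLC17A6 alone was 53.3 and 31.8 of these sums, and NTNG1 and LHX9 were also highest in these libraries. TCF7L2 was high only in Postpuberty 2 (11.8), LEF1 only in Prepuberty 2 (17.7) and PRKCD in neither (1.49 and 1.15). The cortical list summed to 209 in Prepuberty 2 against 23.4 to 88.2 in the others, and the striatal list to 15.3 to 51.4, highest in Puberty 2. NRGN (154) and CAMK2A (53.7) made up nearly all of the 209, while SLC17A7 was lowest there (0.483). PPP1R1B was 44.3 of the 51.4. Oligodendrocyte markers summed to 14600, 11600 and 14500 in Prepuberty 1, Puberty 2 and Postpuberty 1, where the neuron score was low. In the other 6 libraries they summed to between 6450 in Prepuberty 2 and 13400 in Prepuberty 3. Astrocyte markers summed to 7310, 7370 and 6590 in those 3 libraries against 3530 to 5840 in the other 6, mostly GFAP. Endothelial and mural markers summed to 267, 680 and 450 against 142 to 221, so that neither list's sums overlapped. Single members went both ways. In Puberty 2, AQP4 (18.3 FPKM), SLC1A2 (0.00353), GJA1 (43.4), PECAM1 (2.94), CDH5 (1.91), FLT1 (3.8), PDGFRB (0.383) and RGS5 (0) were the lowest of the 9. ALDOC (1270), ALDH1L1 (59.1), CLDN5 (624) and VWF (20.0) were the highest there. In Postpuberty 1, ACTA2 was 233 of the 450. Markers of ependyma and choroid plexus summed to 7650 in Puberty 3, the library with the highest OPRD1 and OPRK1, against 19.0 to 738 in the others. Nearly all of that sum was TTR (7590). The part of these cell types in the levels of PDYN and the other opioid genes was not tested.

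PDYN had the highest correlation with the neuron score of the 7 genes. Over 9 libraries Pearson's r was 0.90 and Spearman's rho 0.95 (exact permutation p = 0.00118 and 0.000353). Without Puberty 2, where PDYN was listed at 0, r was 0.87 and rho 0.93 (exact p = 0.00188 and 0.00223). Because the score falls into a low and a high set of libraries, the relation was also taken within the 6 high libraries alone, a choice made after seeing the data. There r was 0.84 and rho 0.89 (exact permutation p = 0.0389 and 0.0333). Leaving out the 2 libraries farthest from the median score, Puberty 2 and Postpuberty 1, gave r = 0.84 over 7 libraries (exact p = 0.00397). With stage means subtracted r was 0.94, and its exact permutation p of 0.00463 is the smallest that shuffling within stages can give. These are 7 relations, 1 per gene, and p-values are unadjusted.

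For the other genes r was lower, and for several it rested on the libraries with low scores. OPRL1 had r = 0.79 and rho = 0.78 over 9 libraries (exact p = 0.00642 and 0.0172), but r = 0.67 without Puberty 2 (exact p = 0.0685), 0.44 without the 2 farthest libraries (exact p = 0.325) and 0.58 within the 6 high libraries (exact p = 0.221). PNOC had r = 0.76 and rho = 0.82 (exact p = 0.0208 and 0.0108), and 0.70, 0.61 and 0.57 in those 3 subsets (exact p = 0.0582, 0.144 and 0.242). OPRM1 had r = 0.70 and rho = 0.65 (exact p = 0.0386 and 0.0666), and 0.53, 0.70 and 0.77 (exact p = 0.149, 0.0635 and 0.0736). Its exact p was also above 0.05 without Prepuberty 1 (r = 0.67), without Prepuberty 2 (0.63) and without Postpuberty 3 (0.71).

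PENK, despite its high level, had r = 0.59 and rho = 0.53 over 9 libraries (exact p = 0.0917 and 0.148) and r = 0.25 without Puberty 2 (exact p = 0.577). Within the 6 high libraries r was 0.51 (exact p = 0.297). Its 2 highest libraries, Puberty 1 and Postpuberty 3, had scores of 0.44 and 0.51, while Prepuberty 2, with the highest score, had 29.5 FPKM. For OPRD1 r was 0.60 and rho 0.67 (exact p = 0.0846 and 0.0589), and r was 0.54 without Puberty 2 (exact p = 0.173), -0.46 within the 6 high libraries (exact p = 0.389) and 0.88 without Puberty 3, its highest library (exact p = 0.00516).

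OPRK1 changed direction between the sets of libraries. Its r was 0.60 and its rho 0.12 over all 9 libraries (exact p = 0.073 and 0.776) and its r was 0.27 without Puberty 2 (exact p = 0.550). Within the 6 high libraries r was -0.89 and rho -1.0 (exact permutation p = 0.0222 and 0.00278, the latter being the smallest that 6 libraries give), as OPRK1 fell from 1.5 FPKM in Puberty 3 to 0.942 in Prepuberty 2 while the score rose. The pooled value thus rests on the low levels of OPRK1 in Puberty 2 and Postpuberty 1.

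**Figure D3:**
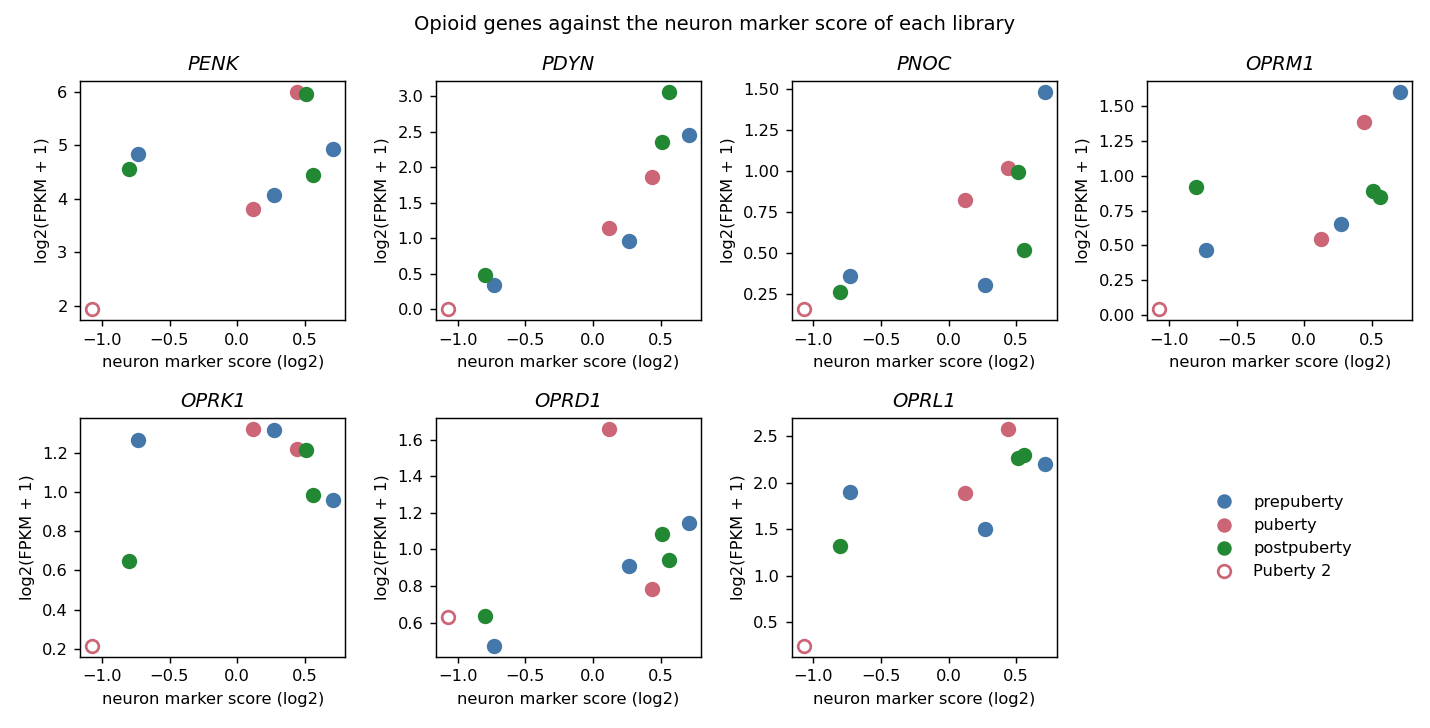
Level of each opioid gene as log2(FPKM + 1) (y axis) against the neuron marker score (x axis, log2 units) in 9 libraries coloured by stage, with Puberty 2 open. PDYN is low in the 3 libraries with low scores and rises with the score among the other 6 (r = 0.90 over 9), and OPRK1 falls with it among the 6 libraries above 0 (r = -0.89).

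Many genes follow the neuron score in this tissue. Over 9 libraries 2.2% of all genes had an r at least as high as PDYN, 7.50% as OPRL1, 9.66% as PNOC, 13.7% as OPRM1, 21.3% as OPRK1, 21.9% as OPRD1 and 22.4% as PENK, with a median r of 0.24. Without Puberty 2 the share was 4.47% for PDYN, 12.7% for PNOC, 14.0% for OPRL1, 19.8% for OPRD1, 20.6% for OPRM1, 32.1% for OPRK1 and 32.9% for PENK, with a median r of -0.09.

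When the score entered the limma fit as a covariate, the standard error of the PDYN difference between puberty and prepuberty fell from 0.78 to 0.34. The difference of PDYN between postpuberty and prepuberty was then 0.71 (95% confidence interval -0.06 to 1.48, limma adjusted p = 1.0, unadjusted 0.0654). Without Puberty 2 it was 0.71 (-0.04 to 1.45, limma adjusted p = 1.0, unadjusted 0.0592). Again 0 of the 7 genes were called in either fit.

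Transcripts of a gene can share most of their sequence, so how the estimate divides reads among them is uncertain, while the sum per gene is less affected. Of the PDYN FPKM over all libraries, XM_042229602.2 held 65.3% and NM_001280677.1 held 22.2%, and the division differed between animals. XM_042229602.2 was listed at 0 in Prepuberty 3, where NM_001280677.1 was at 0.928 FPKM, while in Postpuberty 2 they were at 5.99 and 0.251. XM_060396831.1 was above 0 only in Prepuberty 2 (1.08) and Postpuberty 2 (1.11), both libraries with high PDYN. XM_012128493.5 held 65.2% of PNOC and XM_012128504.5 held 34.8%. Of 16 OPRL1 transcripts, 6 were listed at 0 in all 9 libraries, and XM_060396911.1, with 22.4% of the total, was alone in being above 0 in each library.

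**Figure D4:**
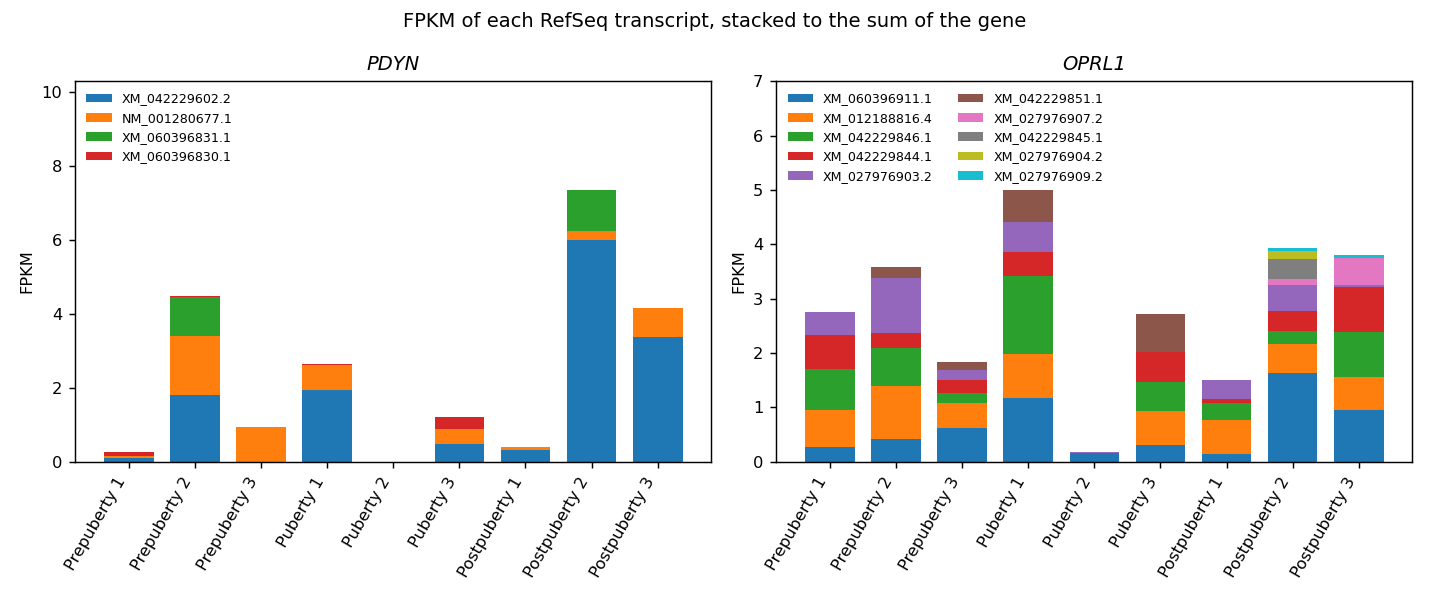
FPKM (y axis) of the coding transcripts of PDYN and OPRL1, stacked by transcript in each of the 9 libraries (x axis), for transcripts above 0 in at least 1 library. XM_042229602.2 makes up most of PDYN in Postpuberty 2 and Postpuberty 3, and the OPRL1 total is divided among several transcripts in each library but Puberty 2.

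Genes whose levels ran most like an opioid gene were sought over the 8 libraries without Puberty 2, among 12321 genes with a mean of at least 1 FPKM, for the 4 opioid genes that reach that mean over these libraries. For PDYN they were HDAC3, a histone deacetylase (Pearson's r of log2 values 0.991), COPS5, a subunit of the COP9 signalosome (0.984), and SNUPN, which imports small nuclear ribonucleoproteins (0.983). HDAC3 ranged only from 10.7 to 16.8 FPKM where PDYN varied 27.0 times. For PENK they were TBC1D7, a subunit of the TSC complex (0.951), TPD52 (0.924) and LOC101109850 (0.914). For OPRK1 they were FDFT1, squalene synthase (0.954), the arginine transporter SLC7A1 (0.935) and ZBTB47 (0.926), and for OPRL1 they were BORCS6, a subunit of the lysosomal BORC complex (0.979), POPDC3 (0.967) and TSPAN17 (0.959). These are the highest of many correlations over 8 animals, and are given as descriptions.

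Of 87 other genes listed for the pathway, 78 were tested and 0 were called in each comparison, with or without Puberty 2. An unadjusted limma p under 0.05 was reached by 1, 1 and 0 of them for puberty against prepuberty, postpuberty against puberty and postpuberty against prepuberty, and by 1, 0 and 2 without Puberty 2. Their median log2 differences were -0.27, 0.32 and 0.08 beside -0.15, 0.20 and 0.05 over all genes, and -0.05, 0.07 and 0.08 without Puberty 2 beside 0.02, 0.03 and 0.05.

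The remaining opioid precursor, POMC, which yields beta-endorphin, had the smallest p of those listed. POMC measured 2.09, 2.72 and 4.10 FPKM at prepuberty, 3.15, 22.4 and 12.8 at puberty, and 17.4, 10.7 and 4.37 at postpuberty. The 3 postpuberty libraries lay above the 3 prepuberty libraries, a separation that 4.4% of all genes show, and Puberty 2 was the highest of the 9, unlike for the 7 genes. On the log2 scale POMC was 1.51 higher at puberty than at prepuberty, or 0.96 without Puberty 2, and 1.43 higher at postpuberty than at prepuberty. Over the stages the limma F test gave an adjusted p of 0.994 (unadjusted 0.0786). Prolactin (PRL), a pituitary hormone, measured 3.28, 0.0562 and 25.6 FPKM at prepuberty, 0.297, 2.65 and 77.8 at puberty, and 74.4 and 8.46 in Postpuberty 2 and 3, and was highest in Postpuberty 1, the postpuberty library with the highest POMC. LHB, another pituitary hormone gene, was highest in Puberty 2 (10.9 FPKM) and measured 0.802, 0 and 4.97 at postpuberty, an order unlike that of PRL, while GH (12.2, 2.83 and 0.576) and CGA (2.92, 2.47 and 0.332) followed the order of PRL at postpuberty and were also highest in Postpuberty 1. The 10 measured pituitary markers summed to 1.16 to 30.9 FPKM at prepuberty, 0.776 to 89.8 at puberty and 14.4 to 216 at postpuberty, while FSHB, TSHB, POU1F1, TBX19 and PITX1 were below 0.5 in each of the 8 libraries other than Puberty 2. Their part in the POMC values was not tested.

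In the other lists the gene with the smallest p had a limma F test adjusted p of 0.994 each. They were CHGA among the precursor-processing genes, LNPEP among peptidases, GNG2 among G protein subunits, ADCY8 among effectors, GRK5 among receptor regulators, ATF3 among regulators of precursor genes, TAC1 among reproductive partners and OPCML among other opioid-binding proteins. ADCY8, an adenylyl cyclase, measured 1.15, 5.42 and 2.76 FPKM at prepuberty, 1.69, 0.0449 and 2.57 at puberty, and 2.75, 4.85 and 5.54 at postpuberty. Like PDYN and OPRM1 it was lowest in Puberty 2. Its 3 postpuberty values lay above its 3 puberty values, a separation that 7.15% of all genes show, or 13.7% without Puberty 2, and the other stages overlapped. OPCML, a neuronal adhesion molecule, was listed at 0 in Puberty 2 and lay between 0.832 and 4.30 FPKM in the other libraries.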

How the data were processed

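The authors trimmed reads with Trimmomatic (version 0.32 in the submitters' processing notes), aligned them with HISAT2 (sheep build ARS-UI_Ramb_v3.0) and estimated transcripts with StringTie. The deposited values are FPKM per transcript, not counts, so the count test of the study was not used. FPKM is by definition scaled within each library, and no further scaling was applied here. The 76684 coding rows among 115108 were joined to RefSeq genes (76682 matched) and summed per gene, and the 38424 other rows were left out. Genes with a mean of at least 0.5 FPKM over 9 libraries were tested with limma 3.58.1 (R 4.3.3, trended variance) on log2(FPKM + 1), with Benjamini-Hochberg adjustment over all genes tested. Because 1 is added, log2 differences of low genes are understated. Exact permutation tests used numpy 2.4.6 (Python 3.11.15). The fit was tested on simulated data. Replicates were separate animals, and their spread sets the precision. Mapped reads and ages come from the study's supplementary tables. TUBB3 was listed as a neuron marker but was not analysed here.

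The 7 genes, the marker lists and the pathway lists were chosen with earlier results of these data known. Genes named were all 7 with every library's value, the gene of each pathway list with the smallest limma F test p, the 3 genes most like each opioid gene with a mean of at least 1 FPKM, and the markers needed to describe a library. Beyond this rule, KISS1, GNRH1, TAC3 and TACR3 are named in the closing section, chosen after their values were seen. Alternatives were the libraries in the fit, the replicate block, the pseudocount, the filter, scaling, the neuron score as covariate, untrended robust variance, the highest transcript per gene, and the markers and libraries behind the score.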

Additional observations from a re-analysis of the deposited data

How the results depend on the processing

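Calls did not move under any setting: 0 of the 7 genes and 0 genes overall were called in each comparison under each alternative. The log2 differences, none of which was called, changed sign in 43 recomputed values and kept it in 377, most of the changes coming on leaving out 1 library. Over the fits that leave out 1 library each, puberty minus prepuberty ranged from -0.70 to 0.35 for PDYN, -1.73 to 0.29 for PENK, -0.25 to 0.33 for PNOC, -0.61 to 0.10 for OPRM1, -0.46 to 0.09 for OPRK1, -0.13 to 0.38 for OPRD1 and -0.80 to 0.37 for OPRL1. Postpuberty minus puberty ranged from 0.42 to 1.71 for PDYN, 0.07 to 2.10 for PENK, -0.33 to 0.10 for PNOC, -0.08 to 0.59 for OPRM1, -0.32 to 0.23 for OPRK1, -0.33 to 0.18 for OPRD1 and -0.28 to 0.89 for OPRL1. Postpuberty minus prepuberty ranged from 0.17 to 1.46 for PDYN, -0.12 to 0.64 for PENK, -0.33 to 0.26 for PNOC, -0.24 to 0.33 for OPRM1, -0.36 to -0.08 for OPRK1, -0.14 to 0.20 for OPRD1 and -0.09 to 0.41 for OPRL1.

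With the neuron score as covariate, puberty minus prepuberty was 0.10 for PDYN and 0.08 for PNOC, and postpuberty minus puberty was -0.05 for OPRK1. With the score and without Puberty 2, a fit chosen after seeing the data, puberty minus prepuberty was 0.23 for PENK, 0.11 for PNOC, 0.08 for OPRK1 and 0.28 for OPRL1, and postpuberty minus puberty was -0.01 for OPRM1, -0.31 for OPRK1 and -0.19 for OPRL1. With the highest transcript alone, puberty minus prepuberty was 0.17 for PDYN and 0.05 for OPRL1, and PNOC was 0.08 for postpuberty minus puberty and 0.01 for postpuberty minus prepuberty. With a pseudocount of 0.1, OPRM1 was 0.10 for postpuberty minus prepuberty. That pseudocount also moved sizes without turning them. Postpuberty minus puberty went from 0.97 to 1.82 for PDYN, from 0.23 to 0.92 for OPRM1 and from 1.06 to 1.18 for PENK. Puberty minus prepuberty went from -0.25 to -0.82 for OPRM1 and from -0.25 to -0.77 for PDYN. The cause of these changes was not tested. Scaling to equal totals moved the median of all genes from -0.15 to -0.29 for puberty minus prepuberty and turned no direction of the 7 genes.

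The correlation of PDYN with the neuron score had an exact permutation p under 0.05 in each of 16 alternatives, with r from 0.84 to 0.95. For PNOC r was 0.78 with stage means subtracted, 0.61 without the 2 farthest libraries, 0.57 in the 6 high libraries and 0.70 with stage means subtracted and Puberty 2 left out, none with an exact p under 0.05. In the same order r was 0.69, 0.70, 0.77 and 0.52 for OPRM1. OPRL1 had r = 0.44 without the 2 farthest libraries, 0.58 in the 6 high libraries and 0.67 with stage means subtracted and Puberty 2 left out. OPRK1 had r = 0.65 (exact p = 0.0433) but rho = 0.03 (exact p = 0.948) with a pseudocount of 0.1. Without the 2 farthest libraries its r was -0.56 (exact p = 0.183) and its rho -0.89 (exact p = 0.0123). In the 6 high libraries its r was -0.89. For OPRD1 r was 0.66 (exact p = 0.0465) without axon and growth markers and -0.46 in the 6 high libraries. Leaving out 1 library each, r ranged from 0.87 to 0.94 for PDYN, 0.25 to 0.70 for PENK, 0.70 to 0.85 for PNOC, 0.53 to 0.82 for OPRM1, 0.27 to 0.80 for OPRK1, 0.50 to 0.88 for OPRD1 and 0.67 to 0.89 for OPRL1. The exact p rose above 0.05 without Puberty 2 for PNOC (0.70), OPRL1 (0.67) and OPRM1 (0.53), and for OPRM1 also without Prepuberty 1 (0.67), Prepuberty 2 (0.63) or Postpuberty 3 (0.71). It fell under 0.05 for OPRK1 without Prepuberty 1 (0.80) or Prepuberty 2 (0.68), and for OPRD1 without Puberty 3 (0.88).

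Replicate numbers do not pair the animals: of 9 same-numbered pairs across stages, 2 had a correlation of deviations over 0.1 (range -0.317 to 0.518), and 3 libraries matched their own number best. With the replicate number as a block 0 genes were called in each comparison. In this balanced design the block leaves each log2 difference as it was, such as 1.06 for PENK between postpuberty and puberty, by construction.

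With 3 animals per stage, intervals of PENK and PDYN span several fold. PNOC, OPRM1, OPRD1 and OPRK1 have medians near 1 FPKM or below. Their values rest on far fewer mapped reads per kilobase than those of PENK, with a median of 25.0. The reads behind each value are not given, and Puberty 2 has the fewest mapped reads of the 9 libraries.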

Other observations

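Chosen for description after their values were seen, genes listed as partners of dynorphin in the control of gonadotropin-releasing hormone had unequal levels. Kisspeptin (KISS1) lay between 0 and 0.36 FPKM, and GNRH1 was listed at 0 in all 9 libraries, which can be a failed estimate as well as absent RNA. TAC1, which encodes substance P, lay between 4.07 and 99.5 FPKM and was highest in Prepuberty 2. Neurokinin B (TAC3) measured 0.211, 3.49 and 1.87 FPKM at prepuberty, 2.41, 0.156 and 0.322 at puberty, and 0.403, 0.207 and 2.73 at postpuberty. Its receptor TACR3 was highest in Prepuberty 2 (1.39), Puberty 1 (1.26) and Postpuberty 3 (1.05). Postpuberty 2, the library with the highest PDYN (7.35 FPKM), had 0.207 FPKM of TAC3 and 0.0419 of KISS1. The libraries next highest in PDYN, Prepuberty 2 (4.48) and Postpuberty 3 (4.14), had the highest TAC3 values of the 9 and 0.217 and 0.253 FPKM of KISS1.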
